A study of Homo sapiens with 2 samples.

Results

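Collagen chains are modified by enzymes before and after they leave the cell, and the genes of 10 such enzymes and subunits were compared here between 1 library from wild-type (WT) cells and 1 library from MEIS2-/- cells. They were taken by name from the 17397 genes that both FPKM tables list by NCBI Gene number: the prolyl 4-hydroxylase subunits P4HA1, P4HA2, P4HA3 and P4HB, the lysyl hydroxylases PLOD1, PLOD2 and PLOD3, and the lysyl oxidases LOX, LOXL1 and LOXL2. All 10 were found, and 9 of them reached 1 FPKM in at least 1 library. P4HA3 did not. Each library was prepared from cells of H1, an established human embryonic stem cell line, taken on day 4 of hematopoietic differentiation. The cultures had received activin A (50 ng/ml) with BMP4 (40 ng/ml) for 2 days, followed by VEGF (40 ng/ml) with bFGF (50 ng/ml) for 2 days. The MEIS2-/- line was made with a lentiviral Cas9 vector carrying a guide to exon 3 of MEIS2, puromycin selection and expansion of single colonies. Which homozygous clone was sequenced is not given, nor whether the WT cells had been through the vector and the selection. The question behind the RNA-Seq was which genes differ when the homeodomain factor MEIS2 is missing at this stage.

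The values are FPKM, that is fragments scaled by transcript length and by the mapped total of the library. Levels can be set side by side between genes, and between libraries only up to a shift in scale. The 2 rescalings given below took about 0.12 and 0.10 off each log2 ratio. MEIS2 mRNA itself was at 10.85 FPKM in the WT library and 3.44 FPKM in the MEIS2-/- library. With 1 library per genotype there is no replicate spread, no test was possible and no p-value is given, so every difference below is a difference between these 2 libraries. A fold change is log2 of the MEIS2-/- value over the WT value after 0.1 FPKM was added to both, so changes of weakly expressed genes come out too small. The 13075 genes that reached 1 FPKM in either library had a median log2 fold change of 0.12. Among the hemogenic endothelium markers, KDR was at 324 FPKM in the WT library and 62.0 FPKM in the MEIS2-/- library, the largest fall. CD34 was at 21.8 and 11.4 FPKM, and PECAM1 was low in both, at 1.53 and 0.93 FPKM.

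Collagen folds in the endoplasmic reticulum. Prolyl 4-hydroxylase is a tetramer of 2 catalytic alpha subunits, encoded by P4HA1, P4HA2 or P4HA3, and 2 beta subunits, which are the protein disulfide isomerase encoded by P4HB. It makes the 4-hydroxyproline that keeps the collagen triple helix stable at body temperature. The PLOD enzymes hydroxylate lysines, some of which are then glycosylated or used in cross-links, and PLOD2 acts on the telopeptide lysines from which stable cross-links form. Outside the cell the copper-dependent lysyl oxidases convert lysines of collagen and elastin to aldehydes that cross-link the fibres. The hydroxylases need oxygen, 2-oxoglutarate, iron and ascorbate. Transcription of several collagen hydroxylases and lysyl oxidases is known to be raised by hypoxia-inducible factor (HIF) when oxygen is low. Whether HIF was active in these cultures was not tested.

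Because several of these genes were lower together, the promoter windows of 6 of them are shown, 4 whose mRNA was at least 2-fold lower in the MEIS2-/- library (P4HA1, P4HA2, PLOD2 and LOX) and 2 from the same families that differed by less than 2-fold, P4HB and PLOD1. Each window runs from 250 bases before to 50 bases after an annotated start, read 5′ to 3′ along the gene. The windows come from RefSeq on GRCh38.p14, which is not the hg19 build named in the submitters' processing notes, and were matched by symbol. Capitals mark each match to the 5-base core of the HIF binding site, searched as ACGTG and GCGTG on both strands, so that CACGT and CACGC are matches on the opposite strand.
P4HA1, chr10:73096817-73097116, minus strand: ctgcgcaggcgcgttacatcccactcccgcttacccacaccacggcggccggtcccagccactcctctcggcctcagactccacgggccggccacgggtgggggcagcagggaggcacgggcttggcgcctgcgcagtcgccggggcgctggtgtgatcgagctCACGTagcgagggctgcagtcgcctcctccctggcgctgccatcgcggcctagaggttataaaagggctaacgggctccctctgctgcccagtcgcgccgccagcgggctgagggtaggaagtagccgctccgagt
P4HA2, chr5:132227042-132227341, minus strand: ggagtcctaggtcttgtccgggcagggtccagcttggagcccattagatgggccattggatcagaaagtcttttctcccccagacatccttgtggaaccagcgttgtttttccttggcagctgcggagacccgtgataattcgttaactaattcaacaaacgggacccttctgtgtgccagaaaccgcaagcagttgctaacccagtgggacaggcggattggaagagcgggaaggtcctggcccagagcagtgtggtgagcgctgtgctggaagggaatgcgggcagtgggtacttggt
PLOD2, chr3:146161135-146161434, minus strand: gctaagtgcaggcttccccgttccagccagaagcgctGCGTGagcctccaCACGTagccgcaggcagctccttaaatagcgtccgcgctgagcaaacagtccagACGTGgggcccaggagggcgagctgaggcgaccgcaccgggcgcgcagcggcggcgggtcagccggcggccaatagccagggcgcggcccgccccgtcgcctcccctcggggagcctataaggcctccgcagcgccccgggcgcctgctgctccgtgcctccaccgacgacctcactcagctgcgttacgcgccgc
LOX, chr5:122078210-122078509, minus strand: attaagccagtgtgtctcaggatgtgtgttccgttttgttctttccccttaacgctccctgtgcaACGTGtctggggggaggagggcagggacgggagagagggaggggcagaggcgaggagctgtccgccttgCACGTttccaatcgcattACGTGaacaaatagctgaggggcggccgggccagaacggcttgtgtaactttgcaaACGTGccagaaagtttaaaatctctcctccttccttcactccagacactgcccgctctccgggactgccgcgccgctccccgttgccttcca
P4HB, chr17:81860486-81860785, minus strand: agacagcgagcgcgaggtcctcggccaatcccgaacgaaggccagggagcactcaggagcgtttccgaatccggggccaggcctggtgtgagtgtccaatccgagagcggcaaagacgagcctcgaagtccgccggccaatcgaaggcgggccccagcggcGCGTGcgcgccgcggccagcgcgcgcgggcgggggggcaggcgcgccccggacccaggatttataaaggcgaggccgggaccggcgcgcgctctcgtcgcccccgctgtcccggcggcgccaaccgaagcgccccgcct
PLOD1, chr1:11934467-11934766, plus strand: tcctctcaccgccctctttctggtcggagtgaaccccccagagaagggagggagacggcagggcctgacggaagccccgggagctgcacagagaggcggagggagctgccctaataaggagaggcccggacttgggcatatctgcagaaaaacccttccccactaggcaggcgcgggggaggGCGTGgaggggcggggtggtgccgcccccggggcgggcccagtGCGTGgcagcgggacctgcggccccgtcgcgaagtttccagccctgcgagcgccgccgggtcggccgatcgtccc

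In these windows LOX had 4 matches, PLOD2 had 3, PLOD1 had 2, P4HA1 and P4HB had 1 each and P4HA2 had 0, and no match overlapped another. The LOX entry is the first of 3 start sites in the table, and the other 2 windows, which overlap each other, held the same 2 matches. Windows of 8 of the 10 genes were searched. PLOD3 and LOXL1, which are not printed, had no match, and LOXL2 and P4HA3 were not analysed here. A core of 5 bases is common: 62.9% of the 10607 windows of genes passing the filter of 1 FPKM hold at least 1 match, 33.6% at least 2 and 15.5% at least 3. Matches were found in windows of genes at least 2-fold lower and of genes that differed less, and a match describes the letters only.

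Among the prolyl 4-hydroxylase genes, the catalytic subunits P4HA1 and P4HA2 differed most. With P4HB included, the family summed to 719 FPKM in the WT library and 415.5 FPKM in the MEIS2-/- library. LOX, LOXL1 and LOXL2 summed to 170 and 97.2 FPKM. P4HA1, the main alpha subunit in most cells, was at 135 FPKM in the WT library and 17.0 FPKM in the MEIS2-/- library, a log2 fold change of -2.99, so that 12.6% of the WT level was kept. P4HA2, the alternative alpha subunit, was at 72.1 FPKM and 10.8 FPKM, a log2 fold change of -2.72, with 15.0% kept. P4HB, which the enzyme shares with general protein folding, was at 512 FPKM and 388 FPKM, a log2 fold change of -0.40, and stayed the highest of the 10 genes in both libraries. P4HA3 was at 0.20 FPKM and 0.03 FPKM, too low for a fold change to be read. In bulk RNA, fewer cells that express a gene and less of its mRNA per cell cannot be told apart.

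Among all genes passing the filter, only 0.497% had a lower log2 fold change than P4HA1 and 0.696% a lower one than P4HA2. The 3 catalytic subunits summed to 207 FPKM in the WT library and 27.8 FPKM in the MEIS2-/- library. P4HA1 held 65.1% of that sum in the WT library against 61.0% in the MEIS2-/- library, and P4HA2 held 34.8% and 38.9%. The pair thus differed by similar factors, and P4HA1 remained the higher of the 2. Against P4HB, the catalytic subunits stood at 40.5 FPKM per 100 FPKM in the WT library against 7.18 per 100 in the MEIS2-/- library, 5.64 times lower. A ratio within a library does not depend on how the library was scaled.

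**Figure D1:**
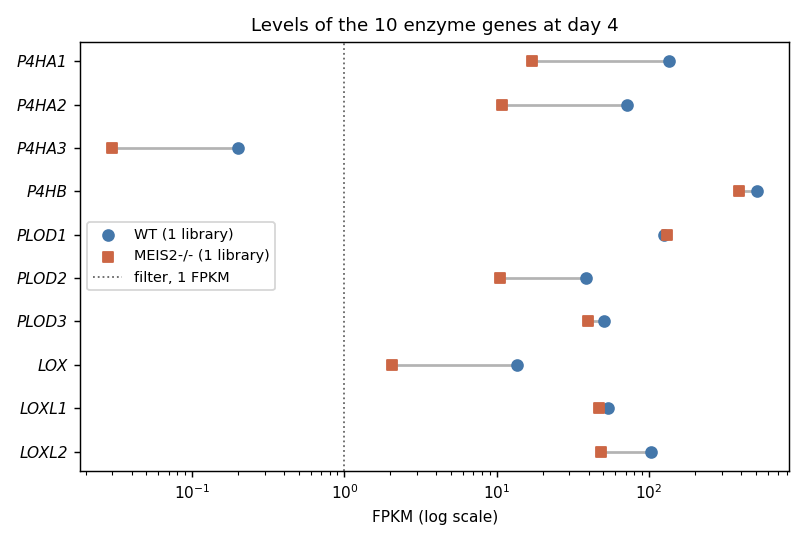
Level of each of the 10 enzyme genes in FPKM on a log axis, with circles for the WT library and squares for the MEIS2-/- library, joined by a line per gene. P4HA1, P4HA2, PLOD2 and LOX have long lines, from 135 to 17.0, 72.1 to 10.8, 38.8 to 10.5 and 13.7 to 2.04 FPKM, while the symbols of PLOD1 and LOXL1 nearly coincide and P4HA3 lies left of the dotted filter line at 1 FPKM.

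The lysyl hydroxylases differed from each other. PLOD2, the telopeptide lysyl hydroxylase, was at 38.8 FPKM in the WT library and 10.5 FPKM in the MEIS2-/- library, a log2 fold change of -1.87, with 27.2% kept. PLOD1, which hydroxylates lysines of the helix, was at 126 FPKM and 131 FPKM. Its log2 fold change of 0.06 lay below the median of all genes and turned to -0.05 once the median log2 ratio was set to 0, and to -0.04 with TMM scaling, which trims extreme ratios before averaging them, so no direction is given for it. PLOD3, which also glycosylates hydroxylysine, was at 50.2 FPKM and 39.6 FPKM, a log2 fold change of -0.34.

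The order of the PLOD genes was PLOD1, PLOD3, PLOD2 in both libraries. PLOD2 made up 18.1% of their FPKM sum in the WT library against 5.81% in the MEIS2-/- library, while PLOD1 made up 58.6% and 72.3% and PLOD3 23.4% and 21.8%. The sum itself was 215 FPKM and 181 FPKM, so 84.4% was kept, against 13.4% for the catalytic prolyl 4-hydroxylase subunits. Per 100 FPKM of PLOD1, PLOD2 stood at 30.9 in the WT library against 8.04 in the MEIS2-/- library.

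Of the lysyl oxidases, LOX differed most. LOX, the founding member of the family, was at 13.7 FPKM in the WT library and 2.04 FPKM in the MEIS2-/- library, a log2 fold change of -2.68, with 14.9% kept. LOXL2, which is known for cross-linking type IV collagen of basement membranes, was at 103 FPKM and 48.1 FPKM, a log2 fold change of -1.09 that lies just past 2-fold. LOXL1, which is known for its part in elastic fibre renewal, was at 53.4 FPKM and 47.1 FPKM, a log2 fold change of -0.18. Of the relatives that were not among the 10, LOXL3 was at 10.6 FPKM and 3.77 FPKM and LOXL4 at 1.35 FPKM and 0.66 FPKM.

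In the WT library LOXL2 was the highest lysyl oxidase, with 56.5% of the FPKM sum of the 5 genes against 29.4% for LOXL1. In the MEIS2-/- library they stood at 47.3% and 46.3%. LOX held 7.52% in the WT library against 2.01% in the MEIS2-/- library. The sum over the 5 genes was 182 FPKM and 102 FPKM. LOX, although lower by a larger factor than LOXL2, thus made a small part of the family's mRNA in either library. LOX was low enough in the MEIS2-/- library for the pseudocount to matter, and its log2 fold change was -2.27 with 1 FPKM added instead of 0.1.

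As a list, 8 of the 9 genes passing the filter were lower in the MEIS2-/- library, where 40.6% of all genes passing it were lower, and 1, PLOD1, was higher by 0.06 but lower after either rescaling. At least 2-fold lower were 5 of the 9 (P4HA1, P4HA2, PLOD2, LOX and LOXL2), where 7.97% of all 13075 genes were at least 2-fold lower. The enzyme genes were chosen with earlier results of these data known, so their counts are not independent of the data. None of the 9 was at least 2-fold higher, where 7.84% of all genes were. The median log2 fold change of the 9 genes was -1.09, the value of LOXL2. The genes split by size rather than forming 1 group: P4HA1, LOX and P4HA2 lay between -2.99 and -2.68, PLOD2 and LOXL2 at -1.87 and -1.09, and P4HB, PLOD3, LOXL1 and PLOD1 between -0.40 and 0.06. All 3 enzyme families held at least 1 gene of the lower 5 and at least 1 gene that differed by less than 2-fold.

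**Figure D2:**
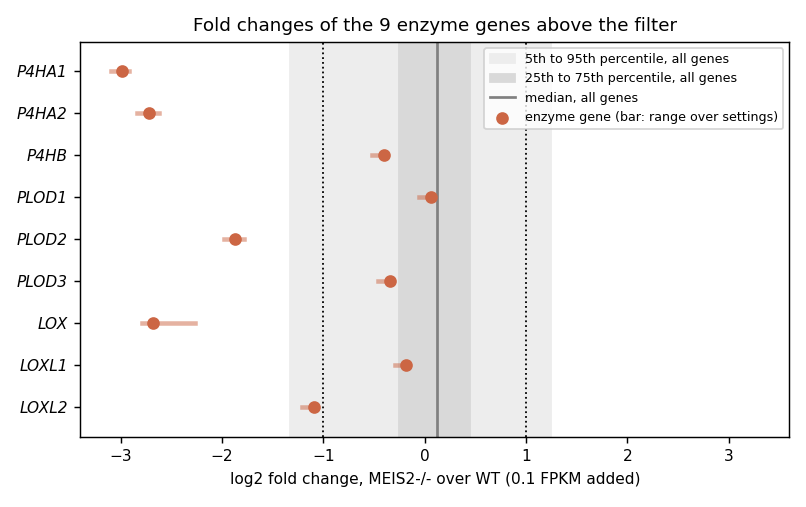
Log2 fold change of the 9 enzyme genes above the filter (points), with bars for the range over the pseudocounts and scalings tried. Grey bands give the spread of all 13075 genes, with the median at 0.12. Dotted lines mark 2-fold. P4HA1, P4HA2, LOX and PLOD2 lie below the 5th percentile of all genes at -1.33, LOXL2 lies between it and the 2-fold line, and the other 4 genes lie within 2-fold.

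The enzymes were next set against other steps of collagen making. Over all genes passing the filter, 7.97% were at least 2-fold lower and 7.84% at least 2-fold higher. A count of 0 in the short lists below is near that share. Prolyl 3-hydroxylation had 0 of 6 genes at least 2-fold different: P3H1 was at 129 FPKM and 68.3 FPKM, P3H2 at 89.2 FPKM and 46.2 FPKM, and PPIB, the cyclophilin of that complex, at 396 FPKM and 441 FPKM. After either rescaling P3H1 and P3H2 were both past 2-fold lower. COLGALT1, the galactosyltransferase that acts on hydroxylysine, was at 57.0 FPKM and 48.2 FPKM. P4HTM, a membrane prolyl 4-hydroxylase of the endoplasmic reticulum not known to act on collagen, was at 12.4 FPKM and 7.80 FPKM.

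None of the 10 collagen chaperones was at least 2-fold different, and their median log2 fold change was -0.17. That count is near the share over all genes, where 7.97% were at least 2-fold lower and 7.84% at least 2-fold higher. SERPINH1, the collagen-specific chaperone HSP47, was at 872 FPKM in the WT library and 627 FPKM in the MEIS2-/- library. FKBP7, a prolyl isomerase, had the lowest fold change of the list at -0.74, and CALR, the lectin chaperone calreticulin, the highest at 0.38. Per FPKM of P4HA1 there were 6.45 FPKM of SERPINH1 in the WT library against 37.0 in the MEIS2-/- library. Of 8 disulfide isomerases and genes of ER oxidation passing the filter, 1 was at least 2-fold lower, the thiol oxidase ERO1A at 11.5 FPKM and 5.54 FPKM. PDIA6, the highest of these relatives of P4HB, was at 237 FPKM and 226 FPKM, and PRDX4, a peroxiredoxin of the same compartment, had the highest fold change at 0.23.

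Among 7 genes of procollagen export, SEC24D, a COPII coat subunit that bulky procollagen needs, was the 1 gene at least 2-fold lower, at 29.1 FPKM and 12.4 FPKM. MIA2, which helps load procollagen at exit sites, had the highest fold change of that list, at 2.91 FPKM and 5.35 FPKM, and SEC31A, another coat subunit, the highest level, at 48.8 FPKM and 41.4 FPKM. Procollagen processing had 2 of 6 genes passing the filter at least 2-fold lower. They were the proteinase ADAMTS3 at 2.47 FPKM and 0.91 FPKM and PCOLCE, which enhances removal of the C-terminal propeptide, at 50.3 FPKM and 23.7 FPKM. BMP1, the proteinase that cuts both procollagen and the LOX precursor, was at 12.2 FPKM and 9.04 FPKM. FURIN, a proprotein convertase, had the highest level and the highest fold change of the 6 processing genes passing the filter, at 99.5 FPKM and 99.7 FPKM. For the supply of copper, iron and ascorbate, 0 of 8 genes were at least 2-fold lower and 2 were at least 2-fold higher. These were ATP7B, a copper pump, at 3.73 FPKM and 7.88 FPKM, and SLC23A1, an ascorbate carrier, at 0.35 FPKM and 1.27 FPKM. SLC23A1 reached 1 FPKM only in the MEIS2-/- library. The count of 2 became 1 with a filter at 5 FPKM or after either rescaling. The shares over all genes passing the filter of 1 FPKM were 7.97% lower and 7.84% higher by at least 2-fold. ATP7A, the pump that loads copper onto lysyl oxidases, was at 0.89 FPKM and 0.83 FPKM. ATOX1, a copper chaperone, had the highest level of this list, at 43.1 FPKM and 51.5 FPKM, and TFRC, the transferrin receptor, the lowest fold change at -0.79. With 1 FPKM added in place of 0.1, ERO1A, ADAMTS3, ATP7B and SLC23A1 were all within 2-fold.

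The substrates differed from each other as well. Of 9 fibrillar collagen chains passing the filter, 5 were at least 2-fold lower, namely COL1A1, COL1A2, COL5A1, COL5A2 and COL11A1, some of which are named here after their values were seen. COL1A1 was the highest, at 464 FPKM and 161 FPKM, and COL11A1 had the lowest fold change, at -1.67. COL2A1, the cartilage chain, was at 18.4 FPKM and 44.2 FPKM, the 1 chain at least 2-fold higher. The basement membrane chains showed 0 of 5 genes at least 2-fold different. Of all genes passing the filter, 7.97% were at least 2-fold lower and 7.84% at least 2-fold higher, so 0 of 5 is near that share. COL4A1 was at 197 FPKM and 216 FPKM, COL4A2 at 191 FPKM and 236 FPKM, and COL18A1 at 456 FPKM and 438 FPKM. Of 12 elastic fibre genes, FBLN1 was the highest, at 435 FPKM and 389 FPKM, and 2 were at least 2-fold lower, EMILIN1 at 12.9 FPKM and 5.30 FPKM and LTBP4, named after its value was seen, at 56.3 FPKM and 23.6 FPKM. EFEMP1, a fibulin, was the 1 gene at least 2-fold higher, at 1.98 FPKM and 13.9 FPKM. ELN, named outside the rule because it encodes the elastin that lysyl oxidases cross-link, was at 2.29 FPKM and 1.72 FPKM.

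Ratios within a library set the enzymes against these chains. The fibrillar chains summed to 1154 FPKM in the WT library and 518 FPKM in the MEIS2-/- library. Per 100 FPKM of fibrillar chains, the catalytic prolyl 4-hydroxylase subunits stood at 18.0 FPKM in the WT library and 5.37 FPKM in the MEIS2-/- library, 3.35 times lower. PLOD1 to PLOD3 together went the other way, from 18.6 to 35.0 FPKM per 100, 1.88 times higher. PLOD2 alone stood at 8.36 FPKM per 100 FPKM of COL1A1 in the WT library against 6.55 in the MEIS2-/- library, a ratio 1.28 times lower, and at 3.36 and 2.03 FPKM per 100 FPKM of all fibrillar chains, 1.65 times lower. LOX stood at 1.18 and 0.394 FPKM per 100 FPKM of fibrillar chains, and the 5 lysyl oxidases together at 15.8 and 19.6. Against the basement membrane chains, which summed to 899.9 and 954 FPKM, the catalytic prolyl 4-hydroxylase subunits stood at 23.0 and 2.91 FPKM per 100, 7.90 times lower. The catalytic prolyl 4-hydroxylase subunits, PLOD2 and LOX thus differed by a larger factor than the summed fibrillar chains, and the lysyl hydroxylase sum by a smaller one.

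**Figure D3:**
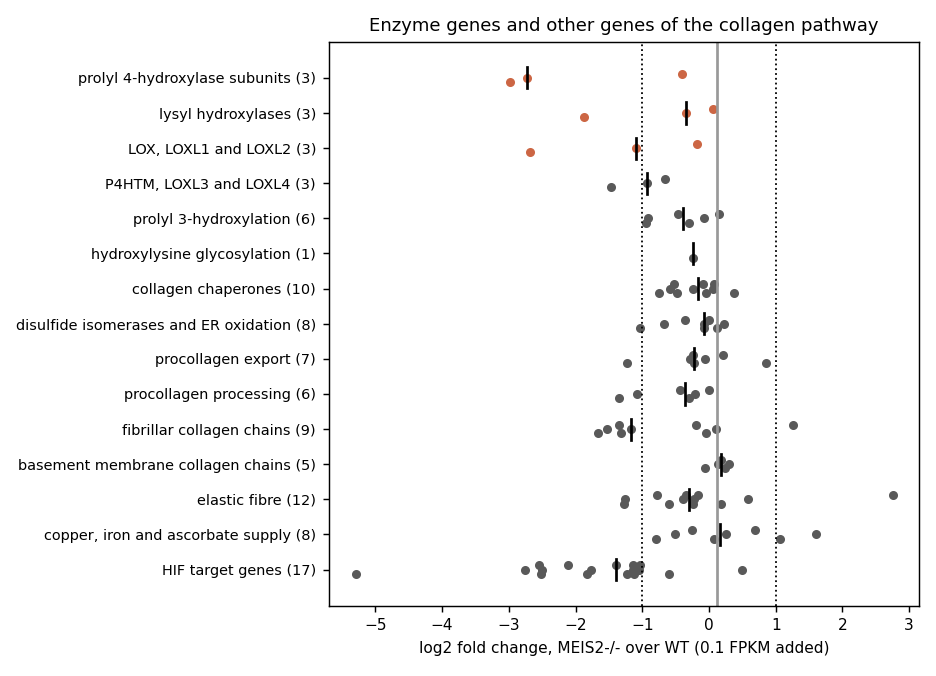
Log2 fold change of each gene passing the filter in the 3 enzyme families (orange) and in other lists (grey), with the number of genes in parentheses, a black bar at each list's median, dotted lines at 2-fold and a grey line at the median of all genes (0.12). P4HA1, P4HA2, PLOD2 and LOX lie left of every gene of the other collagen lists, while the HIF target genes reach from -5.30 to 0.50.

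Other gene groups differed between the same libraries. Of 17 HIF target genes passing the filter and not among the 10, 15 were at least 2-fold lower in the MEIS2-/- library. None of the 17 was at least 2-fold higher, and their median log2 fold change was -1.40. Over all genes passing the filter, 7.97% were at least 2-fold lower and 7.84% at least 2-fold higher. The HIF target genes were chosen with earlier results of these data known. ENO1, the highest of them, was at 2617 FPKM and 1200 FPKM, ANKRD37 had the lowest fold change at -5.30, and ADM was higher at 0.50. Of these 17 genes, 16 were lower, beside 40.6% of all genes passing the filter. The part of what the HIF target genes share in the values of the enzyme genes was not tested.

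Markers of cell types also differed. All 6 hemogenic endothelium markers were lower, including 3 by at least 2-fold, and their summed level was 406 FPKM in the WT library against 95.8 FPKM in the MEIS2-/- library. Most of this sum was KDR, and without it the sums were 81.9 and 33.9 FPKM. Of 8 mesenchyme markers passing the filter, 7 were lower, including 3 by at least 2-fold, with sums over all 9 listed of 141 and 104 FPKM. TWIST2, at 2.99 and 0.53 FPKM, and PRRX1, at 1.74 and 0.82 FPKM, were low, and the count of 3 became 1 with a filter at 5 FPKM and 2 with 1 FPKM added. POSTN was the 1 marker of the 8 that was higher, at 1.54 and 2.99 FPKM, and THY1 had the highest level, at 50.6 and 49.99 FPKM. DCN, a defining mesenchyme marker, was near 0 in both, at 0.07 and 0.06 FPKM. All 6 visceral endoderm markers were at least 2-fold higher, with sums of 411 and 931 FPKM, most of it APOA1. TTR had the highest fold change, from 0.38 to 5.31 FPKM. AFP, APOB and TTR reached 1 FPKM only in the MEIS2-/- library, and the count of 6 became 4 with a filter at 5 FPKM. Among all genes passing the filter of 1 FPKM, 7.97% were at least 2-fold lower and 7.84% at least 2-fold higher. Of the markers of undifferentiated cells, POU5F1 and NANOG were at least 2-fold higher and SOX2 was at 0.09 and 0.15 FPKM. The part of these groups in the values of the 10 enzyme genes was not tested.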

How the data were processed

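RNA was extracted with Trizol, made into libraries with an Illumina TruSeq RNA kit and sequenced on a Genome Analyzer IIx. The authors deposited FPKM values, rounded to 2 decimals, per NCBI Gene number. The submitters' processing notes name BWA, Bowtie, RSEM and hg19, without versions or roles. Whether counting used strand is not given in the sources used here, so reads of genes overlapping P4HA2, P4HA3, LOX, LOXL1 and LOXL2 cannot be told apart from theirs. SRFBP1, which overlaps LOX, was at 2.2 FPKM in the WT library and 3.27 FPKM in the MEIS2-/- library, beside 13.7 and 2.04 FPKM for LOX. Of 17397 Gene numbers, 17365 matched a RefSeq symbol.

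The enzyme genes and lists were chosen with earlier results of these data known. Log2 fold changes were taken after adding 0.1 FPKM, over genes that reached 1 FPKM in either library, without rescaling. Low values showed no clear whole-read steps (best agreement 0.132 for WT and 0.208 for MEIS2-/-, where 1 is complete), so the depth is unknown and no counting interval is given. Named genes were the 10 enzyme genes, MEIS2, P4HTM, LOXL3 and LOXL4, per list the largest rise, the largest fall and the highest mean, and any gene of lists of up to 9 genes. SRFBP1 is named outside this rule because it overlaps LOX. Alternatives were pseudocounts of 1 and 0.01 FPKM, no filter or 5 FPKM, thresholds of 1.5-fold and 4-fold, the mean, and rescaling by the median log2 ratio of the 8092 genes that reached 5 FPKM in both libraries or by a trimmed mean (TMM, 30% of ratios and 5% of means trimmed per side). The computation was tested on simulated data. Python 3.11.15, numpy 2.4.6, pandas 2.3.3 and matplotlib 3.10.9 were used.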

Additional observations from a re-analysis of the deposited data

How the results depend on the processing

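The median log2 fold change of the enzyme genes was -1.09. It became -1.08 with a pseudocount of 1 FPKM, -1.15 without a filter, -1.21 with the median log2 ratio set to 0 and -1.20 with TMM scaling, and the mean was -1.36. The count of 5 genes at least 2-fold lower became 3 at 4-fold (P4HA1, P4HA2 and LOX) and 6 without a filter, where P4HA3 joined, and was 5 under the other alternatives. The count at least 2-fold higher was 0 under each. P4HA1, P4HA2, PLOD2, LOX and LOXL2 stayed at least 2-fold lower under each pseudocount and scaling. They also passed the filter at 5 FPKM, but a filter cannot change a gene's own fold change. Of 228 alternative counts over the lists, 214 stayed within 1.5 times the reported count and 14 moved further. Many of the 228 set a count of 0 beside a reported 0, which was taken as unchanged. The rescalings lowered the median of all genes, from 0.12 to 0.01 and 0.02. No paired analysis was possible because each genotype has 1 library. Unknown depth limits LOX in the MEIS2-/- library and P4HA3 most.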
